A study of Mus musculus with 6 samples.

Results

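The neuronal and glial intermediate filament genes Nefl, Nefm, Nefh, Ina, Prph, Gfap, Vim and Nes were examined in adult mouse retinas with and without Trim9. These 8 genes are among 18193 genes that the array read with probe sets naming a single gene, and 20 of the 34945 such probe sets belong to them. A probe set is a group of short oligonucleotides that together read 1 transcript. Each gene was represented by its brightest probe set, chosen by the mean of log2(intensity + 16) over all 6 arrays. The family was chosen from earlier results of the same WT and Trim9 KO comparison, in which Nefm was among the genes with the lowest change (KO minus WT). The differences between genotypes are therefore given as a description of these arrays, and no p of a member is used as support. No probe set on the array, of a member or of any other gene, had an adjusted limma p under 0.05 (the lowest was 0.999).

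RNA came from retinas of WT mice and Trim9 KO littermates, all labelled adult, with 3 samples of each genotype, and each sample was hybridized to 1 Affymetrix Mouse Genome 430 2.0 array. The KO allele lacks exon 1 of Trim9, removed by Cre recombinase after a cross to CMV-cre mice, and this driver is active in many tissues and in the germline, so that the allele is not restricted to the retina. The other retinas are labelled wild type, and no further allele or agent is named for either genotype. A protocol note on embryos conflicts with the adult label, and age, strain and which samples shared a litter are not given in the sources used here. The p-values measure the spread between these samples, part of which may be technical.

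Intermediate filaments are ropelike polymers of the cytoskeleton that resist stretch and set the calibre of axons. The light, medium and heavy neurofilament proteins (Nefl, Nefm and Nefh) copolymerize with alpha-internexin (Ina) or peripherin (Prph) in neurons, and in the retina they are richest in the axons of ganglion cells and in horizontal cells. Vimentin (Vim) is the filament protein of Müller glia, glial fibrillary acidic protein (Gfap) that of retinal astrocytes and of Müller glia under stress, and nestin (Nes) that of progenitor and vascular cells.

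The arrays had been scaled by the authors to 1 trimmed mean, but their median intensities ran from 218 to 807. The ratio of the 3' to the 5' Actb control probe set, a measure of how far the labelled RNA reached towards the 5' end, was 4.30, 3.28 and 1.78 on the log2 scale in WT replicates 1 to 3 and 1.49, 6.50 and 6.42 in Trim9 KO replicates 1 to 3. Trim9 KO replicate 1 stood apart from the rest, with a mean correlation to the other arrays of 0.50 against 0.63 to 0.74 for the others. The same ratio for Gapdh was -0.14 in WT replicate 3, which had the highest Nefm and Nefh values, and 6.28 to 8.10 on the other 5 arrays, Trim9 KO replicate 1 included (6.91). The brightest of 4 Trim9 probe sets had intensities of 4226, 1767 and 1667 in WT and 1498, 497 and 367 in KO retinas, so that all KO samples lay below all WT samples. The other 3 Trim9 probe sets had differences of -0.77, -2.48 and -0.58 on the log2 scale (KO minus WT). Where these probe sets lie relative to exon 1 was not analysed here, so they are a limited check of the labels. The photoreceptor gene Sag, which encodes rod arrestin, had intensities of 116829 to 127718 in WT retinas and 13419 to 118116 in KO retinas, so the tissue read as retina on every array.

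In the neurofilament triplet, Nefm had lower values in every Trim9 KO retina, whereas Nefl and Nefh overlapped between genotypes. Nefm, the medium subunit read by 1 probe set (1422520_at), had intensities of 745, 4014 and 12768 in the WT retinas and 115, 530 and 326 in the Trim9 KO retinas. All 3 KO values lay below all 3 WT values, but the gap between the highest KO value and the lowest WT value was narrow. On the log2 scale the means were 11.73 ± 2.05 (SD, n = 3) in WT and 8.18 ± 1.05 (SD, n = 3) in KO retinas, a difference of -3.55 with a standard error of 1.19. This is an 11.7-fold lower value on the log2(intensity + 16) scale, which understates folds of dim probe sets. Nefm had the rank of 7 from the lowest change among all 18193 genes, which is the value that put it in view and is not evidence of its own. Fewer cells that hold Nefm and less Nefm RNA per cell cannot be told apart in whole retina.

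Nefl, the light subunit on which the neurofilament is built, was bright in all 6 samples and did not separate the genotypes. Its brightest probe set (1426255_at) gave intensities of 137767, 28486 and 70330 in WT and 40420, 98989 and 104766 in KO retinas. The log2 means were 15.99 ± 1.14 and 16.19 ± 0.77 (SD, n = 3 each), and the difference of 0.20 was smaller than its standard error of 1.01. A second Nefl probe set (1454672_at) gave 90014, 56465 and 60733 in WT and 66820, 33745 and 57943 in KO retinas, a difference of -0.41 with a standard error of 0.91. Both Nefl probe sets thus gave overlapping genotypes, with means on opposite sides.

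Nefh, the heavy subunit whose tail is heavily phosphorylated in axons, had a single probe set (1424847_at) with intensities of 920, 6807 and 11713 in WT and 5698, 2335 and 2305 in KO retinas. WT replicate 1 was the lowest of the 6 samples and the genotypes overlapped. The difference was -0.42 on the log2 scale with a standard error of 1.14. Within each array, the log2 signal of Nefm minus that of Nefh was -0.30, -0.76 and 0.12 in WT and -5.44, -2.11 and -2.76 in KO retinas. Different probes give different signal, so the level of this quantity is not interpretable. The KO samples had lower values of it than every WT sample, and the means differed by -3.13. The same quantity for Nefm minus Nefl was -7.50, -2.82 and -2.46 in WT and -8.27, -7.50 and -8.26 in KO retinas, with WT replicate 1 at the level of the KO samples. Both quantities rest on the Nefm values through which the family was chosen.

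**Figure D1:**
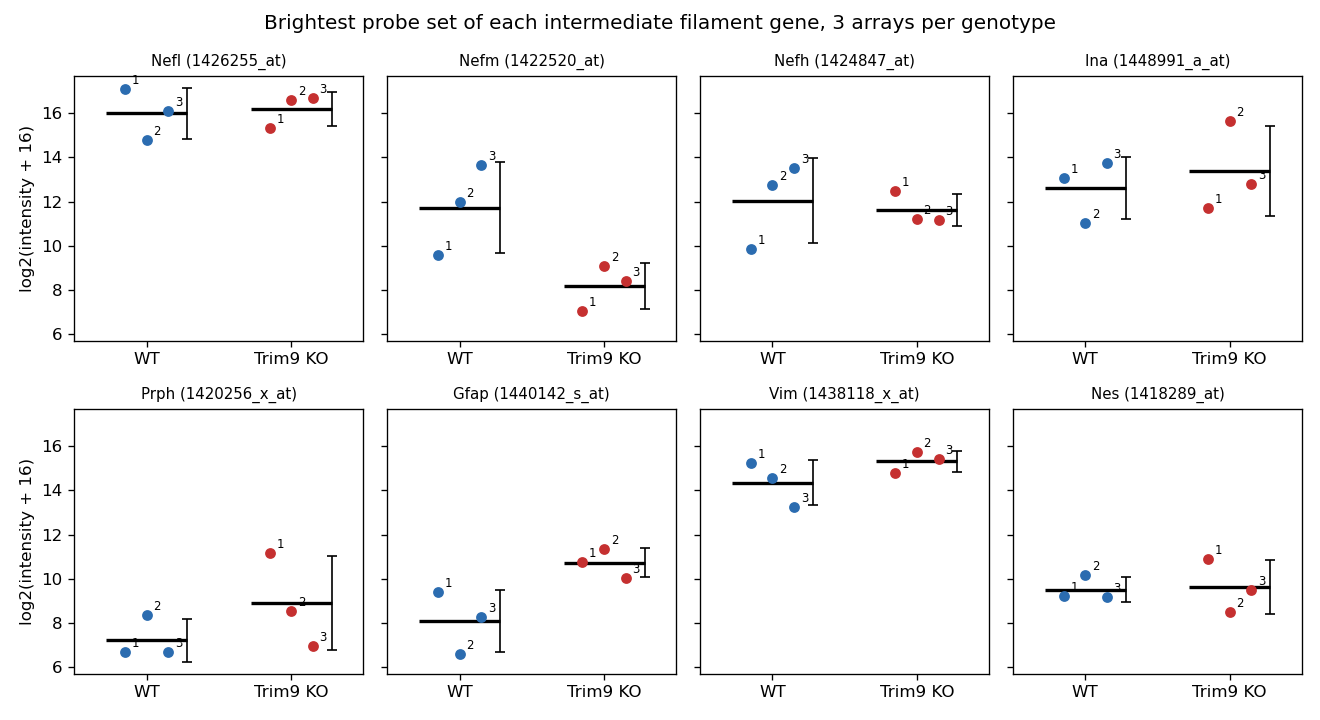
Signal of the brightest probe set of each of the 8 genes as log2(intensity + 16), in 3 WT and 3 Trim9 KO retinas. Points are single arrays numbered by replicate, lines are group means and bars are 1 SD; the groups are apart only for Nefm (all KO samples lower) and Gfap (all KO samples higher).

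Ina, which joins the triplet in central neurons, had a wide spread. The brightest Ina probe set (1448991_a_at) gave 8516, 2111 and 13898 in WT and 3292, 51719 and 7033 in KO retinas, a log2 difference of 0.75 with a standard error of 1.23. The higher KO mean came from the single value of 51719 in KO replicate 2, while KO replicates 1 and 3 lay within the WT range. Without KO replicate 2 the difference was -0.39. Of the other Ina probe sets, 1418178_at gave 1323, 7510 and 14251 in WT and 5899, 10126 and 2354 in KO retinas, a difference of -0.0053 with a standard error of 1.14. Probe set 1448992_at gave 504, 2014 and 7211 in WT and 949, 940 and 754 in KO retinas, a difference of -1.14 with a standard error of 1.10. All 3 Ina probe sets overlapped between genotypes, with differences on both sides of 0.

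Prph, best known from neurons with peripheral axons, was dim. The brightest Prph probe set (1420256_x_at) gave 86, 312 and 86 in WT and 2318, 357 and 110 in KO retinas, a difference of 1.67 with a standard error of 1.20. Its mean signal was at percentile 44.6 of all probe sets, and the high value belonged to KO replicate 1, without which the difference was 0.52. The other 3 Prph probe sets had differences of -0.019, -0.047 and -0.045, with standard errors of 1.59, 0.98 and 1.07. Of these, 1422530_at was also highest in KO replicate 1 (1441), with 8 to 473 in WT retinas and 33 and 10 in the other two KO retinas.

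Gfap, whose protein marks astrocytes and stressed Müller glia, had higher values in every KO retina by its brightest probe set. This probe set (1440142_s_at) had intensities of 672, 82 and 293 in WT and 1741, 2598 and 1043 in KO retinas. All KO values lay above all WT values. The log2 means were 8.11 ± 1.41 and 10.73 ± 0.65 (SD, n = 3 each), a difference of 2.62 with a standard error of 1.04, or 6.15-fold on the same scale. The KO samples were close to each other, whereas the WT samples were spread over a wider range.

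The other 2 Gfap probe sets did not separate the genotypes. Probe set 1426509_s_at gave 153, 839 and 650 in WT and 1781, 688 and 600 in KO retinas, a difference of 1.01 with a standard error of 1.03. Probe set 1426508_at gave 39, 91 and 917 in WT and 1619, 38 and 32 in KO retinas, a difference of -0.12 with a standard error of 1.52. With the mean of the 3 probe sets, the difference of Gfap was 1.17 and the genotypes overlapped. The suffix _s_at marks probes shared by several transcripts, so a probe set of this kind may also read other sequences.

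Vim, the main filament of Müller glia, was read in opposite ways by its probe sets. The brightest (1438118_x_at) gave 38063, 24373 and 9675 in WT and 28046, 54441 and 43862 in KO retinas, a difference of 0.97 with a standard error of 0.97. Probe set 1450641_at gave 1372, 10411 and 8010 in WT and 5085, 1296 and 1135 in KO retinas, a difference of -1.30 with a standard error of 1.12. Probe set 1456292_a_at gave 26787, 11691 and 6302 in WT and 3644, 19909 and 23243 in KO retinas, a difference of -0.075 with a standard error of 1.09. None of the 3 separated the genotypes.

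Over the 6 arrays, the brightest Vim probe set and 1450641_at were inversely related, with a Pearson r of -0.80 (exact permutation p = 0.029, adjusted p = 0.369 over 19 probe set pairs) and a Spearman rho of -0.89 (exact p = 0.033, adjusted p = 0.459). Without the 2 arrays farthest from the median of the brightest probe set, r was -0.99. Both probe sets carry the name of the same gene, and the direction read for Vim depends on which of them is used.

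Nes, known from neural progenitors and vessels, had its brightest probe set (1418289_at) at 577, 1126 and 567 in WT and 1900, 342 and 701 in KO retinas, a difference of 0.11 with a standard error of 1.00. The dimmer probe sets were both higher in all KO samples. Probe set 1449022_at gave 97, 79 and 114 in WT and 174, 179 and 171 in KO retinas, and 1453997_a_at gave 5, 21 and 10 in WT and 146, 36 and 24 in KO retinas. Their log2 differences were 0.77 and 1.36, with standard errors of 0.89 and 0.97. Detection calls were not used here, and 1453997_a_at had a mean at percentile 0.548 of all probe sets, among the dimmest on the array.

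**Figure D2:**
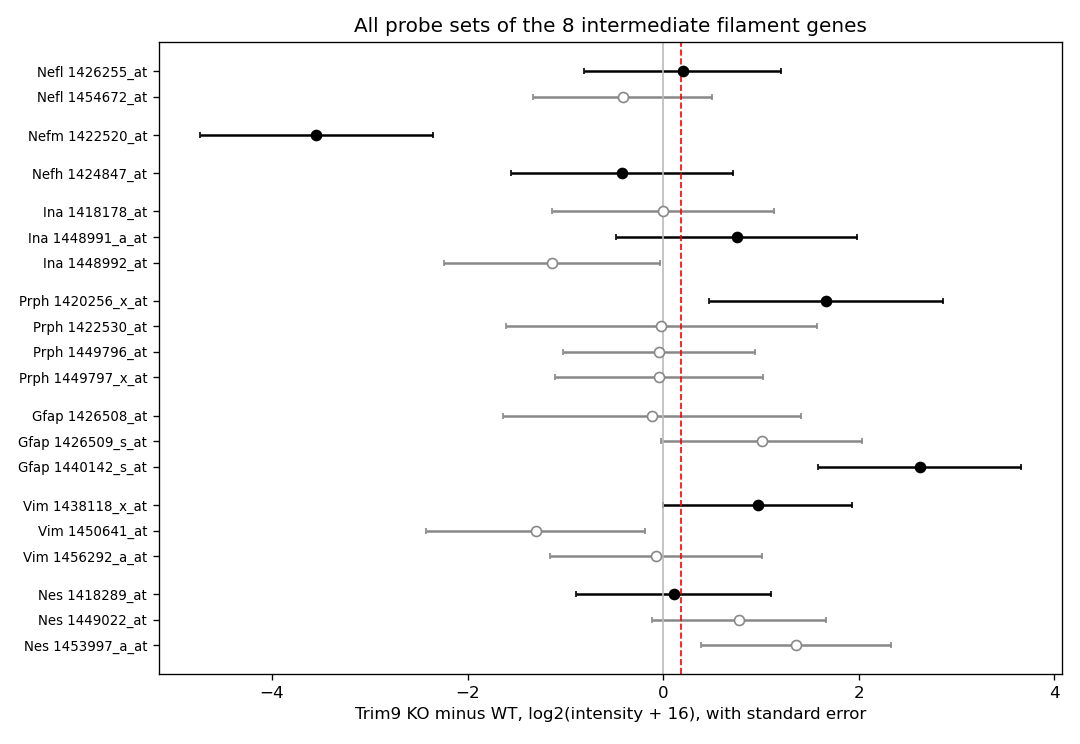
Difference between genotypes (Trim9 KO minus WT, log2(intensity + 16)) of each of the 20 probe sets of the 8 genes, with bars of 1 standard error from limma. Filled points are the brightest probe set of a gene and the dashed line stands at 0.18, the median over every probe set tested; for Nefl, Ina, Prph, Gfap and Vim the points lie on both sides of 0.

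Over all members, 2 of the 8 had a mean that was lower in Trim9 KO than in WT and 6 had a higher one, whereas 44.8% of all genes had a lower and 55.2% a higher mean. One member had all KO samples below all WT samples, where 2.89% of all genes did, and 1 had all KO samples above, where 5.35% did. The count of members past an adjusted p of 0.05 by limma was 0, as it was over all probe sets (0%), and 2 members had an unadjusted p under 0.05, where 1296 probe sets or 2.88% did. Because the rule used this contrast, nothing is read from these shares. The median change of the members was 0.48, against 0.14 over all genes. Scaling moved these values. The median over all probe sets was 0.18 as reported, 0.015 after quantile normalization and -0.14 with equal array medians, and under both of these alternatives 4 of the 8 members had a lower mean. Of all genes, 51.0% and 42.8% then had a higher mean. Of the 20 member probe sets, 11 had a lower and 9 a higher mean, and 4 had no overlap between genotypes, where 7.99% of all probe sets that name a single gene had none.

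Different probe sets of the same gene ranked the 6 samples differently. Of 19 pairs of member probe sets that share a gene, 11 (57.9%) had a positive correlation over the arrays, with a median r of 0.058. Over 30196 such pairs of all genes with 2 to 10 probe sets, 56.0% were positive and the median r was 0.10. The members were thus close to the array as a whole in how little their probe sets moved together.

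The Actb control ratio was also set against each member probe set over the 6 arrays. Of 20 relations computed, the Vim probe set 1456292_a_at had r = 0.87 (exact permutation p = 0.039, adjusted p = 0.201, rho = 0.77) and the brightest Vim probe set r = 0.79 (exact permutation p = 0.040, adjusted p = 0.201, rho = 0.83). Vim probe set 1450641_at had r = -0.83 (exact permutation p = 0.078, adjusted p = 0.311, rho = -0.71) and Gfap probe set 1426508_at r = -0.89 (exact permutation p = 0.028, adjusted p = 0.201, rho = -0.94). Prph probe set 1422530_at had r = -0.87 (exact permutation p = 0.038, adjusted p = 0.201, rho = -0.77). Without the 2 samples farthest in Actb ratio, KO replicates 2 and 3, these r were 0.98, 0.60, -0.59, -0.99 and -0.97. Nefm had r = -0.31 (exact permutation p = 0.52, adjusted p = 0.58, rho = -0.086) and the brightest Gfap probe set r = 0.39 (exact permutation p = 0.42, adjusted p = 0.58, rho = 0.37). None of the 20 relations passed the adjustment. The part that this control has in the differences between genotypes was not tested, apart from a fit with the ratio as covariate, in which Nefm had a difference of -3.60 and Gfap of 2.55.

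**Figure D3:**
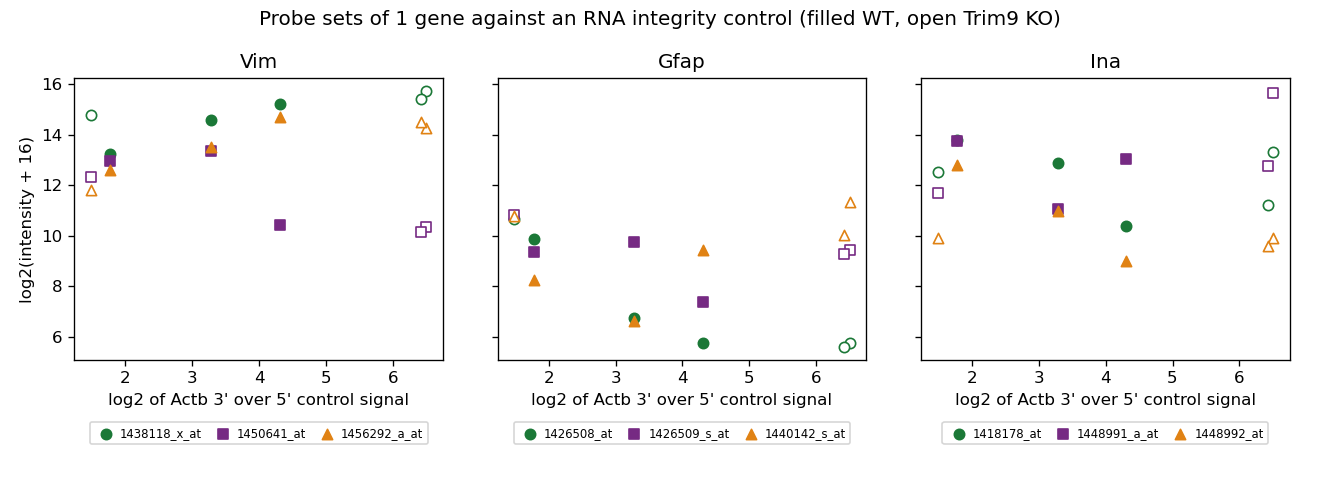
Signal of the 3 probe sets each of Vim, Gfap and Ina, as log2(intensity + 16), against the log2 ratio of the 3' to the 5' Actb control probe set on the same array. Filled symbols are WT and open symbols Trim9 KO retinas; the 3 probe sets of Vim take opposite slopes, with r of 0.79, -0.83 and 0.87 over the 6 arrays.

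No pair of members passed an adjustment over the 28 pairs. Nefm and Nefl had r = -0.19 (exact permutation p = 0.73, adjusted p = 0.76, rho = -0.14), and Nefm and Nefh had r = 0.53 (exact permutation p = 0.30, adjusted p = 0.61, rho = 0.49). Without the 2 samples farthest from the median of Nefm, r was -0.76 for Nefm and Nefl and -0.94 for Nefm and Nefh, so the first was stronger and the second turned its sign. The most extreme pair was Ina and Nes, with r = -0.88 (exact permutation p = 0.026, adjusted p = 0.473, rho = -0.94), and it was -0.93 without the 2 farthest samples of Ina. The genes whose pattern over the 6 arrays was most like that of Nefm, of 9089 genes compared, were Rraga, Ring1 and Anapc11 (r = 0.99 each). For Nefl they were Mthfd1 (1.00), Ndufa6 (0.99) and Mien1 (0.99), for Gfap Tmem176a (0.99), Ptrhd1 (0.98) and Samm50 (0.98), and for Vim Ctsh, Osbpl9 and Cklf (0.99 each). These are the highest of 9089 values over 6 arrays that share their scaling, and they are given as a description only.

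The lists of genes that surround the filaments gave values beside these results. Among 16 measured linkers, motors, kinases and ligases of filaments, 11 had a lower and 5 a higher mean, with a median of -0.40 (-0.72 to 0.0081 under the alternatives). Cdk5r1, the activator of the neuronal kinase Cdk5, had intensities of 7775, 12276 and 8824 in WT and 3348, 3115 and 5449 in KO retinas. All KO values of Cdk5r1 lay below all WT values, as in 2.89% of all genes, with a difference of -1.29 and a standard error of 0.91. Cryab, a small chaperone of filaments, had a difference of 1.50 (standard error 1.11). Trim2, the ligase known to act on the light neurofilament subunit, had -0.35 (standard error 0.93).

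Of 14 ganglion cell genes, none of them a filament gene, 8 had a lower and 6 a higher mean, with a median of -0.11. This median had no stable sign, since it was -0.60 without WT replicate 1 and 0.46 without WT replicate 3. Opn4, the photopigment of intrinsically photosensitive ganglion cells, gave 534, 159 and 792 in WT and 1441, 2049 and 1923 in KO retinas. Opn4 and Pou4f1, a transcription factor of ganglion cells, had all KO samples above all WT samples, with differences of 2.08 and 1.73. All KO samples lay above in 5.35% of all genes, and both were named for their large limma statistics. In the study, adult flat-mount counts of cells stained for BRN3A (the Pou4f1 protein) or OPN4 did not differ significantly between genotypes. Its qPCR found Brn3a RNA unchanged. Ebf3, the next gene of the list by the limma statistic, went the other way at -0.97 (standard error 0.93), with overlapping genotypes. The summed level of the list was 16.2 to 16.6 in WT and 16.1 to 16.8 in KO retinas on the log2 scale, so the genotypes overlapped in it. Of 6 horizontal cell genes, 5 had a lower and 1 a higher mean, with a median of -0.32. Lhx1, a transcription factor of these cells, had -1.83 (standard error 1.01), with overlapping genotypes. Its intensity was 332 in KO replicate 3, against 315 in WT replicate 2. Septin4 was the gene with the higher mean, at 0.85 (standard error 1.10). The genotypes also overlapped in the summed level of the horizontal cell list. The part of ganglion or horizontal cell number in the level of Nefm was not tested here. The study's counts of calbindin-stained cells, a mix of amacrine, horizontal and ganglion cells, also did not differ significantly between genotypes. Its staining for SMI-32, a heavy neurofilament protein, showed no reproducible change in the shape of alpha ganglion cells.

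Of 14 genes of the glial injury response other than the filament genes, 12 had a higher and 2 a lower mean, with a median of 0.75, where the median over all genes was 0.14. Fgf2, a growth factor of stressed Müller glia, had a difference of 1.56 (standard error 1.05), Serpina3n, an acute-phase serpin, 1.40 (standard error 1.23) and Timp1, an inhibitor of matrix proteases, 1.20 (standard error 1.02). None of these 3 separated the genotypes. The summed level of the list was 13.81 to 14.27 in WT and 14.34 to 14.69 in KO retinas on the log2 scale, and 0 of its genes passed the unadjusted or the adjusted limma threshold. The genotypes did not overlap in this sum as reported, but they did after quantile normalization (13.65 to 14.42 and 14.24 to 14.76) and with equal array medians (13.04 to 15.06 and 13.32 to 15.28). The median of the list was between 0.34 and 0.90 in all 17 alternatives. A higher mean was found for 9 to 12 of its 14 genes, and for 7 of the 9 genes left by the filter on dim probe sets. Its part in the level of Gfap was not tested.

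The list for Müller glia, 11 genes with no filament gene among them, held 10 with a lower mean and had a median of -0.54, and 1 to 5 of its genes had a higher mean under the alternatives. Apoe, the lipid carrier of glia, had a difference of -3.02 with a standard error of 1.81, and Clu, clusterin, had 1.26 (standard error 1.02). Apoe gave 35, 1274 and 14982 in WT and 432, 131 and 12 in KO retinas, so its genotypes overlapped. Of 4 astrocyte genes 3 had a higher mean with a median of 0.45, but 1 had without KO replicate 2 (median -0.060) and 2 had without WT replicate 1 (median -0.065). Gja1, the gap junction protein of astrocytes, had 3175, 1914 and 2230 in WT and 9811, 6059 and 14792 in KO retinas. All KO values of Gja1 lay above all WT values, as in 5.35% of all genes. Of 10 vascular genes 7 had a higher mean (5 to 8 under the alternatives). Cspg4, of pericytes, had a difference of 2.26 and Pecam1, of endothelium, of 1.59, both also with all KO samples above. Cspg4 gave 63, 254 and 342 in WT and 2339, 786 and 427 in KO retinas, a narrow gap. Pecam1 was dim, at 26, 62 and 40 in WT and 173, 111 and 189 in KO retinas. The oligodendrocyte list, which would reveal optic nerve tissue, had a median of 0.17, with Mbp at -2.18 and Mog at 2.07. That median was -0.40 without WT replicate 3, -0.074 without KO replicate 1, 0.82 without WT replicate 2 and -1.02 with 4 arrays. Mog overlapped between genotypes, at 9, 173 and 4 in WT and 849, 279 and 12 in KO retinas. Photoreceptor genes had 5 of 6 lower and a median of -0.29 (-0.98 to -0.14 under the alternatives). Other intermediate filament genes had 8 of 14 higher and a median of 0.47, which was 0.025 without WT replicate 1 and 0.051 without KO replicate 1. Among them, Lmna, a nuclear lamin, lay above in all KO samples with a difference of 1.69. The gap was very narrow, at 466 in KO replicate 3 against 464 in WT replicate 3, with 3090 and 1417 in KO replicates 1 and 2. In each of the 10 lists, 0 genes passed the adjusted limma threshold, and 1 gene, Mbp, had an unadjusted p under 0.05 (0.044).

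Leaving out arrays or changing the pseudocount cannot make separated groups overlap, so the separation of Nefm and Gfap was open to change only by rescaling of the arrays or by another choice of probe set. Nefm, which has a single probe set, kept all KO samples below all WT samples with quantile normalization (-3.79) and with equal array medians (-3.87). Gfap overlapped between genotypes in each of the alternatives that could alter it, with differences of 2.38 after quantile normalization, 2.30 with equal array medians and 1.17 for the mean of its probe sets.

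The size of the Nefm difference moved with the arrays kept. It was -4.63 without WT replicate 1 and -2.59 without WT replicate 3, and -2.02 without both WT replicate 3 and KO replicate 1, a set of 4 arrays chosen after the data were seen. The sign of Nefl, Nefh, Ina, Vim and Nes changed under 1 or more of the alternatives.

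**Figure D4:**
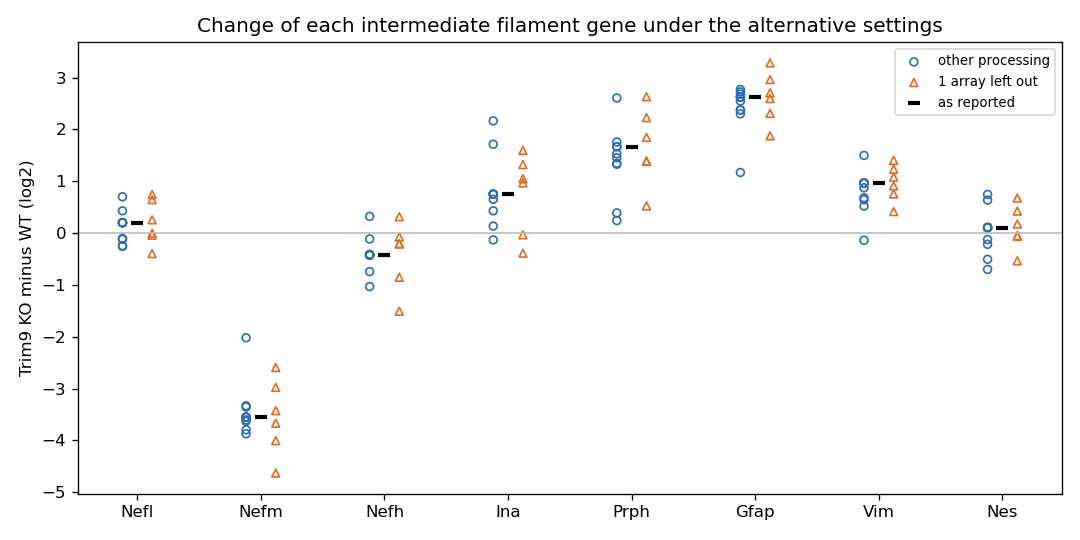
Difference between genotypes (Trim9 KO minus WT, log2) of each gene as reported (bar), under other processing (circles) and with 1 array left out (triangles). The circles also hold the set of 4 arrays chosen after the data were seen, which gave the -2.02 of Nefm. Nefm lies below 0 and Gfap and Prph above 0 throughout, from -4.63 to -2.02 for Nefm and from 1.17 to 3.28 for Gfap, while the other 5 genes fall on both sides.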

How the data were processed

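Values were linear intensities of Affymetrix Mouse Genome 430 2.0 arrays (45101 probe sets, 64 of them controls), deposited by the authors and scaled to 1 trimmed mean per array. Per the labels, MAS5 is the tool in the submitters' processing notes (version not given), whereas the methods state RMA; the linear scale and unequal medians are those of the former, and scanner files were not used here. Every array column had a sample. Intensities were taken as log2(intensity + 16), and 45037 probe sets were fitted with limma 3.58.1 in R 4.3.3 (3 WT, 3 Trim9 KO, no covariate, no block), with p-values adjusted by Benjamini-Hochberg at 0.05. The fit was tested on simulated data. The number of arrays limits the precision. Genes were named from the platform annotation (932 probe sets with several genes and 9160 with none were not assigned). Named were the 8 members with all their probe sets, Trim9, control probe sets, up to 3 genes per list by the limma statistic, and the 3 genes most like Nefm, Nefl, Gfap and Vim. Members and 10 lists (108 genes, 101 of them measured) were chosen with earlier results of these data known. Alternatives were quantile normalization, equal medians, pseudocounts of 1 and 64, a filter on dim probe sets, averaging all probe sets of a gene, a replicate block, array weights, a trend with a robust prior, the Actb covariate, and each array left out. A set of 4 arrays was added after the data were seen. Some genes of the lists were not analysed here. Figures were drawn with Python 3.11.15 and matplotlib 3.10.9.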

Additional observations from a re-analysis of the deposited data

How the results depend on the processing

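With 3 arrays per genotype, no alternative gave a probe set past the adjusted limma threshold (0 in all 17), while 618 to 4986 had an unadjusted p under 0.05. Of 135 member values under the alternatives, 115 had the reported sign and 20 the other, and Nefm, Prph and Gfap never changed sign. The filter on dim probe sets, the replicate block and the trend with a robust prior cannot change a difference in this balanced design. Their values repeat the reported ones and are part of the 115. The median change of the members was 0.88 with array weights, 0.15 with equal array medians, -0.12 with averaging all probe sets of a gene and 0.20 to 0.85 with an array left out. Members with a lower mean numbered 4 with equal medians, 5 with the mean of probe sets, 4 with quantile normalization and 2 to 4 with an array left out. Members with no overlap numbered 1 with equal medians, 1 with the mean of probe sets and 2 to 4 with an array left out (4 without WT replicate 1). With an array left out, any gene separates more easily. The share over all genes was not computed under these alternatives, so nothing is read from these counts. Nefl became -0.26 with the Actb covariate, -0.12 with equal medians, -0.11 with the mean of probe sets, -0.24 with quantile normalization and -0.40 to 0.74 with an array left out. Nefh became 0.32 with the covariate and -1.51 to 0.32 with an array left out. Ina became -0.13 with the mean of probe sets and -0.39 to 1.60 with an array left out, and Vim -0.14 with the mean. Nes became -0.51 with array weights, -0.22 with equal medians, -0.13 with quantile normalization, -0.70 with 4 arrays and -0.53 to 0.68 with an array left out. Prph had no value under the filter on dim probe sets. The cause of these shifts was not tested. The labels share replicate numbers, but same-numbered samples did not deviate together (r of -0.23, -0.08 and 0.03), so they were not taken as pairs. Every replicate number is present in both genotypes, so the replicate block cannot change the differences (Nefm -3.55, Gfap 2.62), only their standard errors. The fit with this block had 0 probe sets past the adjusted and 864 past the unadjusted threshold.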
